A study of Saccharomyces cerevisiae with 24 samples.

Results

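The seripauperin (PAU) genes of Saccharomyces cerevisiae form one of the largest gene families of this yeast, and many copies lie near chromosome ends. They encode short proteins that are poor in serine and resemble the DAN and TIR mannoproteins of the cell wall. As background, many PAU, DAN and TIR genes are known to be silent in aerated cultures, where heme-dependent repressors act on them, and to be switched on by anaerobic growth, by fermentation or in the cold. The data described here concern 10 PAU genes chosen by name, PAU1 (YJL223C), PAU2 (YEL049W), PAU3 (YCR104W), PAU4 (YLR461W), PAU5 (YFL020C), PAU6 (YNR076W), PAU7 (YAR020C), PAU8 (YAL068C), PAU10 (YDR542W) and PAU12 (YGR294W). They are 10 of the 24 PAU genes in a table of 7218 features, and the rule that picks them uses names and no measured value, although it was written with earlier results of these data known.

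The series compared cells with and without the condensin subunit Ycg1 in 2 cell cycle arrests. Degron cells (Ycg1Degron1) expressed YCG1-3PK-3miniAID from the methionine-repressible MET3 promoter, marked with K.lactis URA3 and KANMX6, and carried OsTIR1-9Myc under the ADH1 promoter at ADE2, so that auxin (IAA) triggers Ycg1 destruction. Control cells (Ycg1-3PK) carried the epitope tag at YCG1 with K.lactis TRP1, and both were W303-1A, mating type a. All cultures were grown at 25°C without methionine, held in G1 with alpha factor for 1.5 h, then shifted to rich YPD medium with 88 µg/ml IAA, and sampled 2 h later (G1). They were then released into YPD with IAA and nocodazole, and sampled after a further 2 h (M). M and G1 samples therefore differ in time, pheromone and nocodazole together, and these cannot be told apart. Each RNA sample was sequenced after polyA enrichment and as total RNA, with 3 biological replicates per strain, which gave 24 libraries. The columns of the table name the arrest, the library type, a replicate number and a code, 14 or 18, that the sample labels do not explain. Neither code was assigned to a strain here, and no gene's level was used to do so. There were thus 6 M and 6 G1 libraries of each library type, each made of 3 libraries of code 18 and 3 of code 14.

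The polyA libraries held 10282599 to 22171825 expected counts, of which 2.24 to 10.5% were ribosomal RNA. The total libraries held 13932410 to 21650543 expected counts, of which 95.5 to 96.0% were ribosomal RNA, so that 564083 to 929948 counts remained for all other genes. Levels are given as CPM, counts scaled to 1000000 per library after rRNA genes and ERCC spike-in sequences were left out. On that scale 3 counts, taken as the lowest readable amount, were 0.138 to 0.311 CPM in polyA libraries and 3.23 to 5.32 CPM in total libraries. In M, polyA libraries of code 18 were deeper than those of code 14, with medians of 17086064 and 9797024 usable counts. The arrests fitted their labels: all 3 pheromone-induced genes examined (FUS1, FIG1, AGA1) were higher in every G1 library than in any M library, and all 4 mitotic genes (CLB1, CLB2, CDC20, SWI5) were higher in every M library, in both library types. The a-specific genes MFA1, MFA2 and STE2 summed to 236 to 1724 CPM in polyA libraries, and the alpha-specific genes MFALPHA1, MFALPHA2 and STE3 to 0.664 to 4.14 CPM.

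The name "subtelomeric" fits 7 of the 10 genes. In the R64 reference, PAU8 (1.81 kb), PAU6 (2.05 kb), PAU10 (8.32 kb), PAU3 (8.45 kb), PAU1 (8.78 kb), PAU12 (10.3 kb) and PAU4 (14.9 kb) lie within 20 kb of a chromosome end. PAU7 on chromosome I, PAU2 on chromosome V and PAU5 on chromosome VI lie 53.2, 63.7 and 99.2 kb from the nearer end. These 3 are internal by the 20 kb measure.

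The copies are so alike that a 76-base read often fits several of them. The stretch below shows this: in PAU1 it is found letter for letter in 9 PAU genes (PAU1, PAU4, PAU6, PAU10, PAU12, PAU13, PAU14, PAU18 and PAU24), whereas the aligned stretches of PAU2, PAU3, PAU5 and PAU7 each occur at 1 place in the genome. Capitals mark the bases that differ from PAU1, and all 5 stretches are coding sequence of 1 read length, read 5′ to 3′ on the gene's strand, from the RefSeq R64 genome. They lie at chrX:8986-9061 (minus strand), chrV:63805-63880 (plus), chrIII:307887-307962 (plus), chrVI:99441-99516 (minus) and chrI:176865-176940 (minus).
PAU1: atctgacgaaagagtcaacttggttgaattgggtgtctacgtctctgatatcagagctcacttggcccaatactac
PAU2: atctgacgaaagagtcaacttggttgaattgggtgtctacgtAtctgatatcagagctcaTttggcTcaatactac
PAU3: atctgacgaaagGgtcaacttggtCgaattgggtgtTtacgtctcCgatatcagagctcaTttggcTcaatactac
PAU5: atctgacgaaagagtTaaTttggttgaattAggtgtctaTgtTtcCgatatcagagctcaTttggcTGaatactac
PAU7: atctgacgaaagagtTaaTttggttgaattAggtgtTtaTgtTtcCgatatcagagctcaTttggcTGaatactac
PAU2 differs from PAU1 at 3 of the 76 bases, PAU3 at 6, PAU5 at 9 and PAU7 at 10. The 3 internal genes are thus told apart from PAU1 and from each other in this stretch.

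Over whole coding sequences, the share of 76-base windows found at 1 place in the genome was 100% for PAU7, 82.0% for PAU5, 79.9% for PAU2, 75.7% for PAU3, 74.3% for PAU8, 62.5% for PAU4, 37.2% for PAU12 and 26.7% for PAU10. It was 0% for PAU1 and PAU6, because the coding sequence of PAU1 is identical to that of PAU14 and the coding sequence of PAU6 to that of PAU18. The counting program RSEM divides reads that fit several genes by estimation. PAU1 and PAU14 held identical values in all 24 libraries, and so did PAU6 and PAU18, so each value is an equal share of what was given to the pair. The repeated windows of PAU5 lie at 2 places, and none lies wholly within another annotated gene. Reads from the second place could be counted as PAU5. PAU5 and PAU7 share no window with any other gene, and their counts were whole numbers in 24 of 24 libraries, against 4 of 24 for PAU1 and 10 of 24 for PAU12. Libraries at 0 are among these whole values: 6 for PAU5, 10 for PAU7, 1 for PAU1 and 9 for PAU12, all of them total libraries. The reference is another strain than W303, and W303 copies may differ from it. The plot of read-length uniqueness shows which counts rest on a gene's own reads and which on a division among copies.

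**Figure D1:**
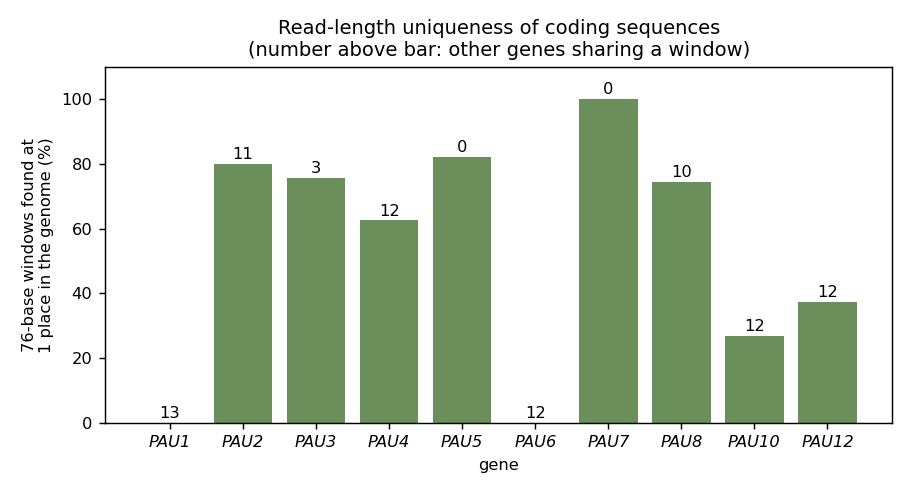
Share of 76-base windows of each coding sequence found at 1 place in the R64 genome (bars, %), for the 10 PAU genes; the number above a bar counts the other genes that share at least 1 window. PAU1 and PAU6 stand at 0% and PAU7 at 100%.

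All 10 genes were expressed at low levels. PAU1 averaged 9.00 ± 1.81 CPM per kb of coding sequence over the 12 polyA libraries (SD), PAU5 5.98 ± 1.51, PAU7 4.69 ± 1.71 and PAU12 3.69 ± 1.37 CPM per kb. The median of 6007 coding genes was 46.8 CPM per kb, and PAU1, the highest of the 10, exceeded 14.4% of them. The other 6 averaged 1.10 (PAU3), 0.880 (PAU4), 0.781 (PAU2), 0.556 (PAU8), 0.376 (PAU10) and 0.173 (PAU6) CPM per kb, and PAU6 exceeded 2.85% of coding genes. No polyA library held more than 59.5 counts of any of the 10, the value of PAU1 in 1 G1 library of code 18.

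The order of levels was only partly separated. PAU1 exceeded PAU5 in 12 of 12 polyA libraries and PAU12 exceeded PAU3 in 12 of 12, although the ranges of both pairs overlapped across libraries. PAU5 was above PAU7 in 10 of 12, and PAU7 above PAU12 in 8 of 12. Below PAU3 no neighbour was above the next in more than 9 of 12 libraries, so the order from PAU3 down to PAU6 was not separated. The order of PAU5 and PAU7 depended on the length used. The 168-base coding sequence of PAU7 leaves 93 positions at which a 76-base read can start, and per 1000 such positions PAU7 averaged 8.48 CPM and PAU5 7.50 CPM, PAU7 being higher in 8 of 12 libraries. PAU1 had the highest mean on both scales, but its value is an equal share of a pool held with PAU14, none of its windows is its own, and its place above PAU5 and PAU7 holds only under the division that RSEM made.

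The summed level of the 10 genes does not depend on how reads were divided within the set, though it does depend on reads divided with other copies. In polyA libraries the sum was 7.76 at the lowest, 8.24 at the median and 10.1 CPM at the highest of 6 M libraries, against 7.66, 9.40 and 11.0 CPM in 6 G1 libraries. The ranges overlapped almost wholly. The means were 8.71 ± 1.02 CPM in M and 9.32 ± 1.45 CPM in G1 (SD, n = 6 each), a ratio of 0.935. By code, the sums in M were 8.04, 8.16 and 10.1 CPM in code 18, against 7.76, 8.31 and 9.88 CPM in code 14. In G1 they were 7.66, 8.35 and 10.4 CPM in code 18, against 8.07, 10.4 and 11.0 CPM in code 14. The ratios of code 18 to code 14 were 1.01 in M and 0.898 in G1, each with overlapping libraries. PAU1, PAU5, PAU7 and PAU12 held 84.4% of the 1411 counts that the 10 genes had in all polyA libraries together.

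**Figure D2:**
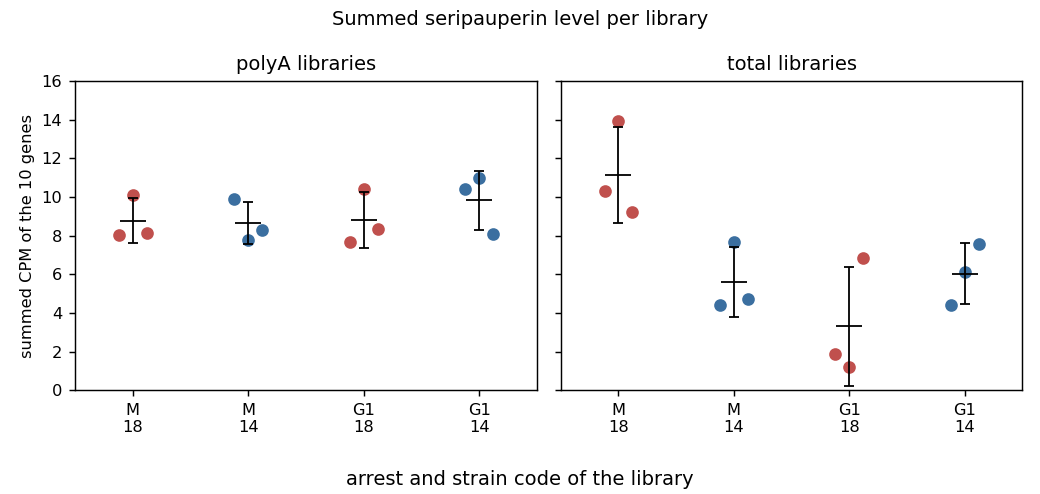
Summed CPM of the 10 PAU genes in each library (points; code 18 in red, code 14 in blue), with the mean and SD of 3 libraries (bars), in polyA libraries (left) and total libraries (right). All polyA libraries lie between 7.66 and 11.0 CPM, whereas total libraries run from 1.21 to 13.9 CPM on sums of few counts.

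To ask whether the genes differed between the mitotic and the G1 arrest, M was compared with G1 across 5977 genes with a mean of at least 5 expected counts in polyA libraries (edgeR quasi-likelihood test, Benjamini-Hochberg adjustment over all of them, called at an adjusted p below 0.05). Of all genes tested, 49.9% were called. That share covers genes of all levels, and the share among genes with as few counts as the PAU genes was not computed. PAU1, PAU5, PAU7, PAU12 and PAU3 passed the count minimum, and 0 of these 5 were called, also by DESeq2, with 0 at an unadjusted p below 0.05 by edgeR. PAU3, with a mean of 5.34 counts, stood just inside the minimum and PAU4, with 4.26, just outside. The median log2 difference of the 5 was -0.07, beside 0.01 over all genes tested. M and G1 libraries of 1 code and number were taken as 1 culture sampled at both arrests, and the fit that pairs them by culture called 0 of the 5 too.

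PAU1, whose reads cannot be told from those of PAU14, had 2.55, 3.13 and 4.42 CPM at the lowest, median and highest of the M libraries, against 2.75, 3.07 and 4.75 CPM in G1. Its log2 difference of M over G1 was -0.05, with a 95% interval of -0.43 to 0.33 (edgeR adjusted p = 0.839). PAU5, whose windows no other gene shares, had 1.63, 2.09 and 2.80 CPM in M, against 1.03, 2.28 and 2.99 CPM in G1. Its difference was -0.07, with an interval of -0.59 to 0.45 (edgeR adjusted p = 0.835). Both genes overlapped between the arrests over nearly their whole range. The intervals leave out a 2-fold change, in either direction, of PAU5 and of the value that PAU1 shares with PAU14. A 2-fold change of PAU1 alone cannot be judged from that shared value. PAU7, the short and fully unique copy, had 0.480, 0.824 and 1.42 CPM in M, against 0.412, 0.775 and 0.963 CPM in G1. Its difference was 0.23, with an interval of -0.48 to 0.94 (edgeR adjusted p = 0.589).

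PAU12 and PAU3 had the largest estimates, both towards lower levels in M. PAU12 had 0.685, 1.67 and 0.515 CPM in M libraries of code 18 and 1.25, 0.969 and 1.60 CPM in M libraries of code 14, against 0.966, 1.37 and 1.26 CPM in G1 libraries of code 18 and 1.76, 1.88 and 2.15 CPM in G1 libraries of code 14. M was below G1 in 5 of 6 cultures, and the exception was culture 2 of code 18. The log2 difference was -0.51, with an interval of -1.13 to 0.11 (edgeR adjusted p = 0.157). It passed the threshold only without the M library of code 18, replicate 2, where it was -0.79 (edgeR adjusted p = 0.0166). PAU3 had 0.0981, 0.409 and 0.480 CPM at the lowest, median and highest of the M libraries, against 0.289, 0.482 and 0.728 CPM in G1. Its difference was -0.51, with an interval of -1.30 to 0.28 (edgeR adjusted p = 0.272), on 25.0 counts in M and 39.1 counts in G1 over all 12 libraries.

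**Figure D3:**
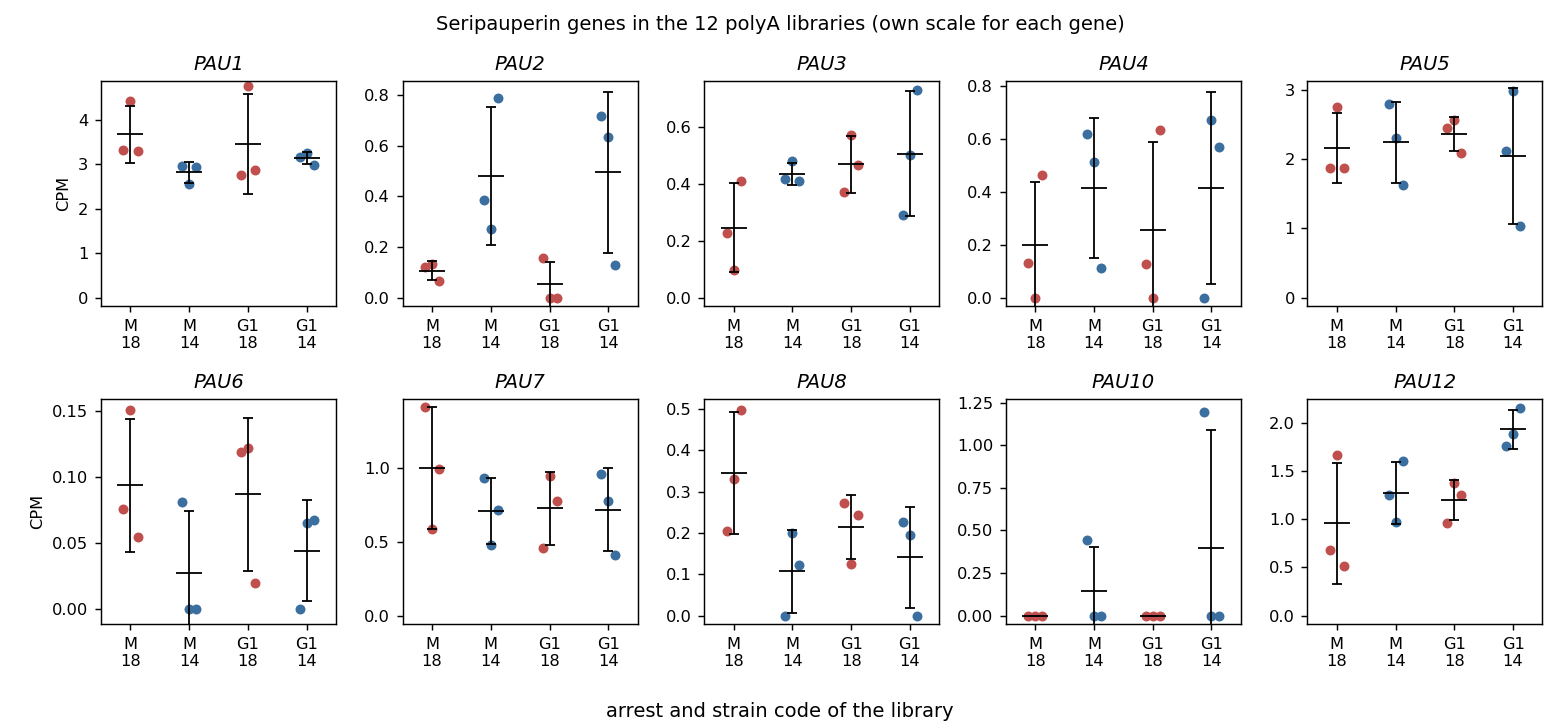
CPM of each of the 10 PAU genes in the 12 polyA libraries by arrest and code (points; code 18 in red, code 14 in blue; each gene on its own scale), with the mean and SD of 3 libraries (bars). PAU10 is above 0 in 2 libraries, both code 14 replicate 1. PAU2 is lower in code 18 than in code 14 in M without overlap, its code 18 values there and the nearest code 14 value being under 3 counts.

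The codes were compared within each arrest, in the same 12 libraries as the comparison of arrests. In M 11.5% and in G1 15.5% of the genes tested were called, and 0 of the 5 PAU genes were called in either, by edgeR or by DESeq2, with 0 at an unadjusted p below 0.05 by edgeR. PAU1 had 3.32, 4.42 and 3.29 CPM in M libraries of code 18, against 2.97, 2.55 and 2.93 CPM in those of code 14, with no overlap. Its log2 difference was 0.35, with an interval of -0.19 to 0.90 (edgeR adjusted p = 0.419). In G1 the values of PAU1 were 2.75, 4.75 and 2.87 CPM in code 18, against 3.17, 3.24 and 2.98 CPM in code 14, which overlapped. PAU12 in G1 did not overlap between the codes, with 0.966, 1.37 and 1.26 CPM in code 18 against 1.76, 1.88 and 2.15 CPM in code 14. Its difference there was -0.73, with an interval of -1.56 to 0.10 (edgeR adjusted p = 0.224), and in M it was -0.51, with an interval of -1.43 to 0.41 (edgeR adjusted p = 0.502). How many of all genes lacked overlap between codes was not counted, here or for PAU2 and PAU8 below.

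PAU5, PAU7 and PAU3 overlapped between the codes in both arrests. Their differences in M were -0.07 (-0.82 to 0.67), 0.55 (-0.44 to 1.54) and -0.70 (-1.91 to 0.50), and in G1 0.16 (-0.57 to 0.88), -0.07 (-1.07 to 0.93) and -0.14 (-1.19 to 0.90), each with its 95% interval. A 2-fold change of PAU5 between codes lies outside these intervals in both arrests. The same holds for the value that PAU1 shares with PAU14, whose interval in G1 is given in the plot. For PAU1 alone a 2-fold change cannot be judged from that shared value. For PAU7 and PAU3 a change of 2-fold in one direction is within the interval in both arrests. The difference between the codes in their M over G1 change was called for 3.56% of all genes and for 0 of the 5, with 0 at an unadjusted p below 0.05 by edgeR and 0 called by DESeq2. Its estimates ran from -0.56 for PAU3 to 0.62 for PAU7. The plot of log2 differences shows every interval crossing 0.

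**Figure D4:**
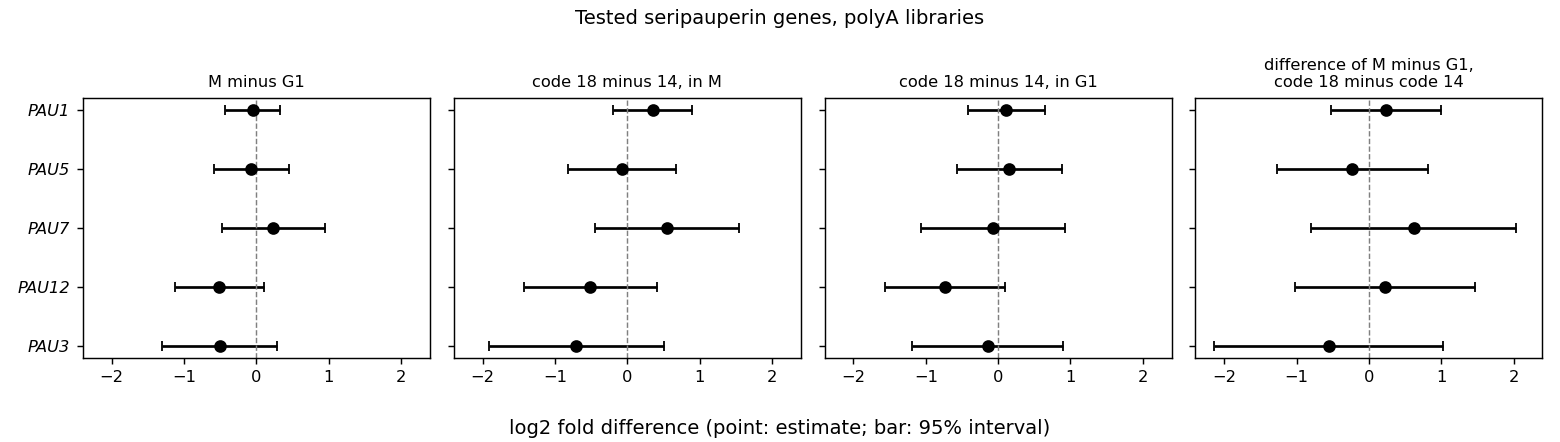
Log2 fold differences (points) with 95% intervals (bars) of the 5 PAU genes that passed the count minimum, in polyA libraries: M minus G1, code 18 minus code 14 in M and in G1, and the difference between codes of the M minus G1 change. All 20 intervals include 0 and are narrowest for PAU1.

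The 5 genes under the count minimum had between 0 and 12.4 counts in a polyA library, and their values turned on few reads. PAU2, the internal copy on chromosome V, had 0.121, 0.134 and 0.0650 CPM in M libraries of code 18, against 0.385, 0.270 and 0.788 CPM in those of code 14, with no overlap. The values of code 18 were 2.13, 1.36 and 1.11 counts, and the nearest value of code 14, 0.270 CPM, was 2.81 counts. All of these are under the lowest readable amount. In G1 it had 0.156, 0 and 0 CPM in code 18, against 0.718, 0.636 and 0.130 CPM in code 14. It had 7.98 counts in the 6 libraries of code 18, against 34.4 counts in the 6 of code 14. Without the count minimum, where PAU2 could be tested, its log2 difference of code 18 over code 14 was -2.76 in G1 (edgeR adjusted p = 0.0601) and -2.36 in M (edgeR adjusted p = 0.121), neither past the threshold. The unadjusted p by edgeR was 0.00857 in G1 and 0.0183 in M. Of its 288 windows, 230 occur at 1 place.

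PAU10 was the least evenly spread of the 10. It had 0.442 CPM in the M library and 1.20 CPM in the G1 library of code 14, replicate 1, which are 4.26 and 12.4 counts. It was at 0 in the other 10 polyA libraries, where 3 counts would be at most 0.311 CPM, and in all 12 total libraries. PAU4, 1 of 12 other genes that share windows with PAU10, had 0 counts in that G1 library and 5.95 in that M library. PAU4 was also at 0 in the M and G1 polyA libraries of code 18, replicate 2, where PAU10 was at 0 too. Whether the division of shared reads moved between copies in these libraries was not tested.

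PAU8, which lies 1.81 kb from an end of chromosome I, had 0.206, 0.331 and 0.498 CPM in M libraries of code 18, against 0, 0.200 and 0.123 CPM in those of code 14, with no overlap. The nearest values, 0.206 and 0.200 CPM, were 3.63 and 2.08 counts, the second under the lowest readable amount. In G1 it had 0.273, 0.126 and 0.244 CPM in code 18, against 0.226, 0.196 and 0 CPM in code 14, with overlap. PAU4 ran from 0 to 0.617 CPM in M and from 0 to 0.670 CPM in G1, and was at 0 in 3 of 12 polyA libraries. PAU6, which shares all its reads, ran from 0 to 0.150 CPM in M and from 0 to 0.121 CPM in G1, with 10.5 counts in all. M and G1 libraries overlapped for each of these 5 genes.

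Total RNA held few counts of the 10 genes. None of them reached the minimum among the 5216 genes tested in total libraries, where 22.7% of genes were called for M against G1, 3.57% for the codes in M, 8.13% in G1 and 2.49% for the difference between codes. Without the minimum 9 of the 10 could be tested in total libraries, all but PAU10, and 0 of the 9 were called by edgeR in these 4 comparisons. At an unadjusted p below 0.05 by edgeR there was 1 gene for M against G1 (PAU5, adjusted p = 0.171), 1 for the codes in M (PAU12, adjusted p = 0.324), 1 for the difference between codes (PAU12, adjusted p = 0.311) and 0 for the codes in G1. Summed over the 10 genes, the 6 M total libraries had 4.43, 8.45 and 13.9 CPM at the lowest, median and highest, against 1.21, 5.27 and 7.58 CPM in G1, which rest on 35.9 counts in M and 21.5 counts in G1. The ranges overlapped. By code, the sums in M were 9.21 to 13.9 CPM in code 18, against 4.43 to 7.69 CPM in code 14. In G1 they were 1.21 to 6.85 CPM in code 18, against 4.41 to 7.58 CPM in code 14, so the order of the codes in M was not seen in G1. In M, 7.64 of the 24.9 counts of code 18 were PAU12 in 1 library (replicate 1), and PAU12 was at 0 in the other 5 M total libraries.

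The polyA and total libraries were made from the same RNA, so their levels were set side by side. At its polyA level, PAU1 would give 28.4 counts in all 12 total libraries together, and it had 20.9. PAU5 would give 19.6 and had 11.0, PAU12 would give 11.1 and had 10.3, and PAU7 would give 7.06 and had 2.00. The ratio of pooled CPM, polyA over total, was 1.35 for PAU1 (95% exact interval 0.874 to 2.20), 1.78 for PAU5 (0.985 to 3.61), 1.11 for PAU12 (0.592 to 2.35) and 3.53 for PAU7 (0.957 to 29.5). These intervals cover counting error only. With all libraries they include 1, as do those of PAU2, PAU3, PAU4, PAU6 and PAU8, which had 0.73 to 4.82 total counts. For 3 genes the interval left out 1 once some single library was dropped. With all libraries the lower ends for PAU5 and PAU7 were already near 1. Dropping a total library that holds many of a gene's counts must raise its ratio. Without the M total library of code 18, replicate 1, PAU12 kept 2.61 total counts and its ratio was 3.34 (1.13 to 16.3). Without the M total library of code 18, replicate 2, the ratio was 2.59 (1.25 to 6.50) for PAU5 and 6.53 (1.15 to 260.0) for PAU7, and without replicate 3 of that group it was 6.48 (1.14 to 258) for PAU7, each on 1 to 7 total counts. These intervals leave out 1. So did that of PAU5 without the M total library of code 14, replicate 2 (1.13 to 5.26), or the G1 polyA library of code 14, replicate 3 (1.02 to 3.74). The interval of PAU7 did so without the G1 polyA library of code 18, replicate 1 (1.02 to 31.5). In the fit over all 24 libraries, 43.9% of 5879 genes were called between library types. PAU1, PAU5, PAU7 and PAU12 passed the minimum there, 0 of the 4 were called by edgeR or DESeq2, and PAU7 had the lowest unadjusted p, 0.0299 (edgeR adjusted p = 0.0647). PAU12 was called only without the M total library of code 18, replicate 1, with a fitted log2 difference of 4.61 (edgeR adjusted p = 0.0244), against 2.57 with it (edgeR adjusted p = 0.254); fitted values on so few total counts are no measure of size.

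The other 14 PAU genes stayed in the same low range. Of them 7 passed the minimum in polyA libraries, and 0 were called by edgeR or DESeq2 for M against G1, between the codes in either arrest, or for the difference between codes. The 7 include PAU14, whose values are those of PAU1. At an unadjusted p below 0.05 by edgeR there were 2 between the codes in G1, PAU21 and PAU22, which are identical in coding sequence and in every value, and 0 in the other comparisons. All 24 PAU genes together summed to 18.5 ± 2.24 CPM in M and 18.9 ± 3.78 CPM in G1 (SD, n = 6 each), a ratio of 0.981.

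Of the related DAN/TIR group, 5 of 6 genes were tested in polyA libraries, and TIR1 and TIR3 rose in M against G1. These 2 of 5 are 40.0%, beside 49.9% called over all genes, a share that says nothing particular of the group. TIR1, a cell wall mannoprotein gene induced by cold and anaerobic growth, had 1.23 to 3.53 CPM in M libraries, against 0.465 to 1.14 CPM in G1, with no overlap and a log2 difference of 1.80 (1.16 to 2.45; edgeR adjusted p = 0.000313). TIR3, of the same group, had 14.4 to 21.2 CPM in M, against 4.71 to 10.9 CPM in G1, with no overlap and a difference of 1.38 (1.12 to 1.65; edgeR adjusted p = 1.85e-06). TIR3 fell in code 18 against code 14 in G1, with a difference of -0.82 (edgeR adjusted p = 0.00916), and in M its difference was -0.30 (edgeR adjusted p = 0.273). DAN1 did not reach the count minimum.

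Genes outside the cell wall families that oxygen or heme represses moved in both directions. Of 7 tested, 4 rose and 3 fell in M against G1, beside 49.9% called over all genes, with a median log2 difference of 0.19, beside 0.01 over all genes. CYC7, the hypoxic isoform of cytochrome c, rose with 16.6 to 32.7 CPM in M, against 5.77 to 11.5 CPM in G1, a difference of 1.63 (edgeR adjusted p = 3.00e-05). OLE1, the fatty acid desaturase, rose with 1539 to 2027 CPM in M, against 814 to 1139 CPM in G1, a difference of 0.89 (edgeR adjusted p = 7.09e-06). ANB1, the hypoxic isoform of translation factor eIF5A, fell with 1.25 to 3.34 CPM in M, against 2.58 to 4.88 CPM in G1, a difference of -0.89 (edgeR adjusted p = 0.00901). AAC3, the anaerobic ADP/ATP carrier, also fell, with a difference of -0.52 (edgeR adjusted p = 0.0226).

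Of 8 regulators of anaerobic genes, 3 rose and 0 fell in M against G1, which is 37.5% beside 49.9% over all genes. ROX1, the heme-dependent repressor of hypoxic genes, had 224 to 308 CPM in M, against 134 to 217 CPM in G1, a difference of 0.55 (edgeR adjusted p = 0.000682). MOT3, another repressor of this gene group, differed by 0.27 (edgeR adjusted p = 0.00367) and ECM22, a sterol-responsive activator, by 0.21 (edgeR adjusted p = 0.0358). UPC2, the activator of anaerobic and sterol genes, did not pass between the arrests. Between the codes in G1, 2 of the 8 regulators rose in code 18 and 0 fell, which is 25.0% beside 15.5% over all genes. UPC2 was 1 of these 2, with a difference of 0.64 (edgeR adjusted p = 0.0204). Among 183 tested genes within 20 kb of a chromosome end, PAU genes left out, 58 rose and 34 fell in M against G1, which is 50.3% beside 49.9% over all genes. The plot of log2 differences by gene list shows TIR1, TIR3, CYC7 and OLE1 above 0 and ANB1 below 0, all of them called. The tested PAU genes, none of them called, had a median of -0.07 in the chosen set and of -0.27 among the others. PAU12 and PAU3 were the lowest of the chosen set.

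**Figure D5:**
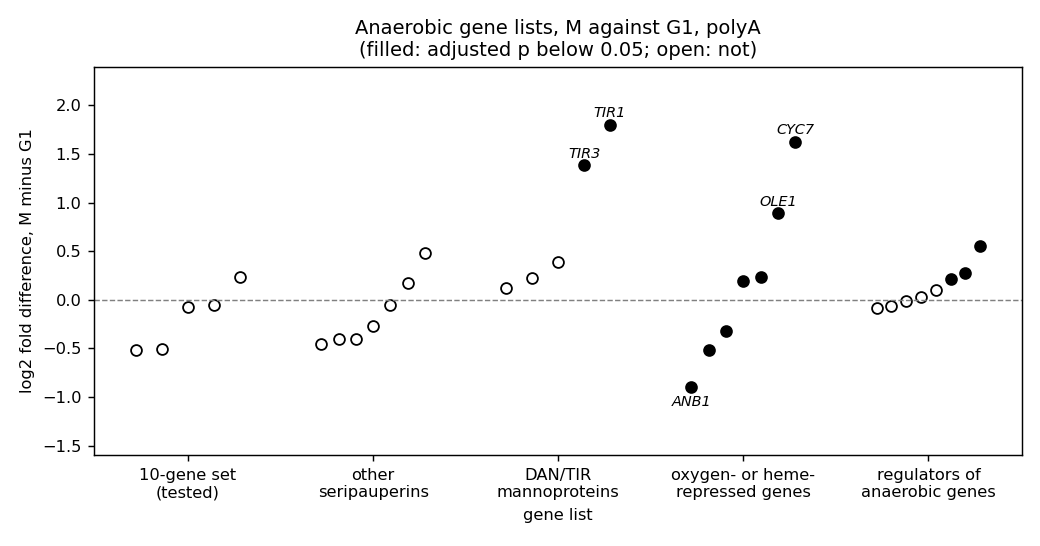
Log2 fold difference of M minus G1 in polyA libraries for each tested gene of 5 lists (points; filled where the edgeR adjusted p was below 0.05). Filled points are 0 of 12 tested PAU genes, 2 of 5 DAN/TIR genes, 7 of 7 oxygen- or heme-repressed genes and 3 of 8 regulators, beside 49.9% of all genes tested. Among the 12, PAU1 and PAU14 have identical values, and so have PAU21 and PAU22. The 49.9% covers genes of all levels, and differences between lists were not tested.

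By a fixed rule, the genes outside the family whose log2 CPM was most like the log2 summed level of the 10 genes were YDR157W (Pearson r = 0.81), VVS1 (YBR241C, 0.81), HEM1 (0.79), LDB7 (0.77) and YDL187C (0.73). HEM1 encodes the first enzyme of heme synthesis, and LDB7 a subunit of the RSC chromatin remodelling complex. These values describe the top 5 of 5965 genes over 12 polyA libraries that share their preparation and differ in depth, and nothing is drawn from them.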

How the data were processed

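RNA from 24 libraries (76-base, strand-specific, single-end reads) was analysed from 1 deposited table. The authors trimmed reads with cutadapt 1.9.1 and estimated gene counts with RSEM 1.3.0 and STAR 2.5.2a against R64 genes with ERCC sequences; the deposited values used are expected counts, not normalised. Reads that fit several PAU genes were divided by estimation. The 24 TPM columns were not used. Columns were matched to arrest and library type; codes 14 and 18 of the column names stand in no label and were compared as codes.

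Expected counts were rounded, 16 rRNA features and 92 ERCC sequences were left out, and genes with a mean of 5 or more were tested with edgeR 4.0.16 (R 4.3.3; TMM, quasi-likelihood, arrest by code, polyA and total libraries separately, and all 24 together for library type). Intervals (95%) and standard errors follow from the quasi-likelihood F. Uniqueness was counted in RefSeq R64 (same assembly name; the table has no coordinates), where 6048 genes were matched. A value was called whole within 0.005. Likeness used a pseudocount of 0.5 CPM. All 10 genes were named by rule, with called genes of 4 lists, at most 4 per list and comparison. The members and lists were chosen with earlier results of these data known. On simulated polyA counts (5977 genes, M against G1), 95% of 100 genes changed by 1 log2 unit and 100% of 100 changed by 2 were recovered, with 13 false calls. The changed genes were drawn at random from genes of all levels, with a single set spread. These shares are therefore no measure of recovery for the low-count PAU genes.

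M and G1 samples of 1 culture are paired by the study's sampling. Deviations of same-culture M and G1 polyA libraries correlated at -0.29 to 0.55, above 0.1 in 2 of 6 pairs. M and G1 polyA libraries of 1 code with different numbers correlated at -0.47 to 0.33, above 0.1 in 3 of 12 pairs. These ranges overlap, so the values do not themselves show that the number marks a culture. Alternatives were RLE factors, DESeq2 1.42.0, no or another count filter, a replicate block, rRNA kept and leaving out each library.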

Additional observations from a re-analysis of the deposited data

Results flagged for a closer look

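In 25 groups of 6 libraries, those with more than 3 counts in some library, the highest or lowest library was set against the other 5, and 4 values stood apart by Dixon's criterion. Chance gives about 1 in 20 groups for continuous values, which can be said of PAU1 alone. For PAU10 and PAU12 the other 5 libraries were at 0, so the criterion was met by construction and those 3 values are given as a description. PAU1 had 4.75 CPM (50.1 counts) in the G1 polyA library of code 18, replicate 2, against 3.24 CPM in the next. PAU10 had 0.442 CPM in the M polyA library and 1.20 CPM in the G1 polyA library of code 14, replicate 1, and 0 in the other 5 of each group. PAU12 had 8.74 CPM in the M total library of code 18, replicate 1, which is 7.64 counts, and 0 in the other 5. PAU1, PAU10 and PAU12 all share read-length windows with at least 12 other PAU genes. The part of read division among copies in these 4 values was not tested.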

How the results depend on the processing

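Of 908 recomputed values, 858 kept their direction and their side of the threshold or stayed within the interval; these include the pooled polyA over total ratios without each library, chosen after seeing the data. Pairing by culture as a replicate block left PAU12 in M against G1 at -0.56 (edgeR adjusted p = 0.0856), and neither block, by culture or by replicate number, changed a call of a PAU gene or moved a count of calls by over 1.5 times. DESeq2 called 496 genes for the difference between codes in polyA libraries, against 213 by edgeR. Summing all 24 PAU genes in place of the 10 gave 18.7 CPM in place of 9.02 CPM. Leaving out 1 library at a time, the number of the tested PAU genes called was 0 to 1 for M against G1 in polyA libraries and 0 to 1 for library type; both single calls were PAU12, named in the report. Signs changed without any call. In M against G1 the range was -0.134 to 0.0934 for PAU1 and -0.21 to 0.13 for PAU5. Between codes in G1 it was -0.18 to 0.28 for PAU1, -0.38 to 0.11 for PAU3, -0.15 to 0.57 for PAU5 and -0.32 to 0.24 for PAU7. Between codes in M it was -0.26 to 0.11 for PAU5. For the difference between codes it was -0.62 to 0.10 for PAU5 and -0.34 to 0.54 for PAU12, and for library type -0.0798 to 0.441 for PAU1. Counts over all genes ran, in polyA libraries, from 571 to 969 for the codes in G1, 348 to 706 for the codes in M and 90 to 365 for the difference between codes, and in total libraries from 282 to 467, 109 to 209 and 49 to 236. The cause of these moves was not tested. Depth limits most the 5 genes under the count minimum and all 10 in total RNA. In total RNA 3 counts exceed the mean polyA levels of the 10 genes in most libraries. Low counts also limit PAU3, PAU7 and PAU12 in polyA libraries, where they had 64.1, 127 and 200 counts in all.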
